A study of Mus musculus with 27 samples.

Results

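The growth hormone axis of mouse hepatocytes was read out through 9 genes, chosen by name in the bulk RNA-seq count table: Ghr, Stat5b, Cish, Socs2, Igf1, Igfals, Mup3, Mup20 and Car3. All 9 of 9 had a row among the 21850 rows that the table holds for each library, and 27 libraries were used, with 3 in each of 9 conditions. The study grew hepatocyte organoids (HepOrgs) from C57BL/6 mice and rebuilt the periportal liver around them. Hepatocytes were sequenced directly after isolation. HepOrgs at passage 2 were kept in Matrigel for 7 days (1 week) or 14 days (2 weeks) in the expansion medium HM-Wnt or in the minimal medium MM. HM-Wnt holds the growth factors EGF, HGF, FGF7 and FGF10 with gastrin, RSPO1, nicotinamide, WNT3a-conditioned medium, the GSK3 inhibitor CHIR, the TGF-β receptor inhibitor A83-01 and a ROCK inhibitor, whereas MM is the basal medium with WNT-conditioned medium and the ROCK inhibitor. Neither recipe as described lists growth hormone. Periportal assembloids joined HepOrgs with cholangiocytes and portal mesenchymal cells in MM and were collected at 7 days or 18 days (1 week or 2.5 weeks). They were homeostatic with 250 mesenchymal cells per well or fibrotic-like with 2500. The labels give all groups as wild type, but the genotype label of hepatocyte replicate 3 reads MDR2-het while its title reads wild type. The labels do not say which libraries came from separate mice, so p values measure the spread between these libraries.

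Growth hormone is released by the pituitary in pulses and binds its receptor GHR on hepatocytes, where the kinase JAK2 activates the transcription factor STAT5B. STAT5B is known to raise the transcription of Igf1 and Igfals, whose products circulate together as a complex that carries the hormone IGF-1, and of Cish and Socs2, whose products feed back to dampen the receptor. In mice the pulse pattern differs between the sexes, and major urinary proteins (Mup genes) and several cytochrome P450 genes are textbook readouts of that pattern in liver. Car3 encodes a cytosolic carbonic anhydrase whose level in rat liver is known to differ with the pattern of growth hormone release.

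Levels are given as CPM, the counts of a gene scaled to a common library total and normalised for library composition with edgeR's TMM method over the 27 libraries, and always in the order of replicates 1, 2 and 3. Libraries held 30289364 to 65345685 counts (median 43727965), so counting error is small for any gene above a few CPM. A call means an adjusted p under 0.05 in edgeR's quasi-likelihood test with Benjamini-Hochberg adjustment over all genes tested. Errors of log2 fold changes are approximate standard errors, worked back as the log2 fold change over the square root of the test's F. Levels were not compared between genes. In bulk RNA, fewer hepatocytes and less RNA per hepatocyte cannot be told apart. Summed CPM of 10 hepatocyte markers ran from 69854 to 105993 in freshly isolated hepatocytes, from 25760 to 45787 in HM-Wnt HepOrgs and from 13516 to 30517 in MM HepOrgs, and those of 6 cholangiocyte markers ran from 11.6 to 143 in freshly isolated hepatocytes and from 3563 to 15491 in HepOrgs. Against freshly isolated hepatocytes, 7, 9, 8 and 9 of the 10 hepatocyte markers were lower in HM-Wnt at 1 and 2 weeks and MM at 1 and 2 weeks, and 3, 5, 5 and 5 of the 6 cholangiocyte markers were higher. Markers of other liver cells were lower too: 7 of 7 endothelial markers in each comparison and 9, 8, 6 and 3 of 10 immune markers, with 1 immune marker higher in each. The summed endothelial level was 40.5 to 195 CPM in freshly isolated hepatocytes and 0.539 to 2.29 CPM in HepOrgs, and the summed immune level 59.5 to 644 CPM and 7.54 to 830 CPM. Their part in the results on the members was not tested.

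Libraries that stood apart touch several of the results. Replicate 2 of the homeostatic assembloids at 1 week had counts on 8463 genes, against 14014 to 16016 in the other 26 libraries, and held no counts of Cish, Socs2, Igf1, Igfals or Car3. Replicate 3 of the fibrotic-like assembloids at 1 week had a summed hepatocyte marker level of 1740 CPM, against 10963 and 15065 in its group, and its summed level of 4 Y-linked genes was 11.6 CPM against 87.3 to 298 in the other 26 libraries. Replicate 2 of the freshly isolated hepatocytes differed from the other two in genes of the axis itself and is described next. Other libraries also differed from their groups in marker levels. Replicate 3 of MM HepOrgs at 1 week had a summed hepatocyte marker level of 13516 CPM against 27888 and 30517, replicate 3 of MM HepOrgs at 2 weeks a summed immune marker level of 830 CPM against 7.54 and 28.3, and replicate 2 of the fibrotic-like assembloids at 2.5 weeks a summed hepatocyte marker level of 6948 CPM against 22868 and 28316. Without the last of these no member was called in any assembloid comparison it enters, and the MM libraries are left out in turn beside the results on medium.

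In freshly isolated hepatocytes some axis genes were alike in the 3 replicates and others were not. Ghr was at 1353, 1080.0 and 1308 CPM, Stat5b at 64.1, 89.6 and 59.7, Igfals at 349.9, 200.1 and 326, Mup3 at 18791, 14056 and 17033 and Car3 at 12874, 8881 and 14086, so each was within a few-fold across the replicates. Cish, by contrast, was at 79.6, 0.350 and 79.3 CPM and Socs2 at 42.4, 1.14 and 43.5 CPM, with counts of 2987, 8 and 2604 and of 1590, 26 and 1428. Both feedback genes were therefore well expressed in replicates 1 and 3 and at few counts in replicate 2. Mup20 was the reverse, at 1098, 26367 and 2219 CPM, highest in replicate 2.

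Some other genes of the axis were also highest or lowest in replicate 2, though Socs3 and Selenbp2 differed between replicates 1 and 3 too. How many of all genes were highest or lowest in replicate 2 was not counted. The prolactin receptor gene Prlr was at 139, 20.9 and 123 CPM, the feedback gene Socs3 at 309, 5.25 and 41.8 CPM and the transcriptional repressor gene Bcl6, which STAT5 is known to repress, at 3.92, 15.4 and 5.75 CPM. Mup21 was at 3379, 322 and 4402 CPM and Selenbp2, a male-biased liver gene, at 22.6, 3871 and 638 CPM. The summed cholangiocyte marker level was 143 CPM in replicate 2 against 11.6 and 30.8, the summed immune marker level 644 CPM against 59.5 and 238, and the summed mesenchyme marker level 159 CPM against 23.9 and 107. Whether these cells had a part in the difference was not tested. With 3 libraries the difference of replicate 2 has no test, and each comparison with freshly isolated hepatocytes is given with and without it where that changes a call. Bcl6, Socs3, Prlr, Mup21 and Selenbp2 were picked here after their values had been seen.

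**Figure D1:**
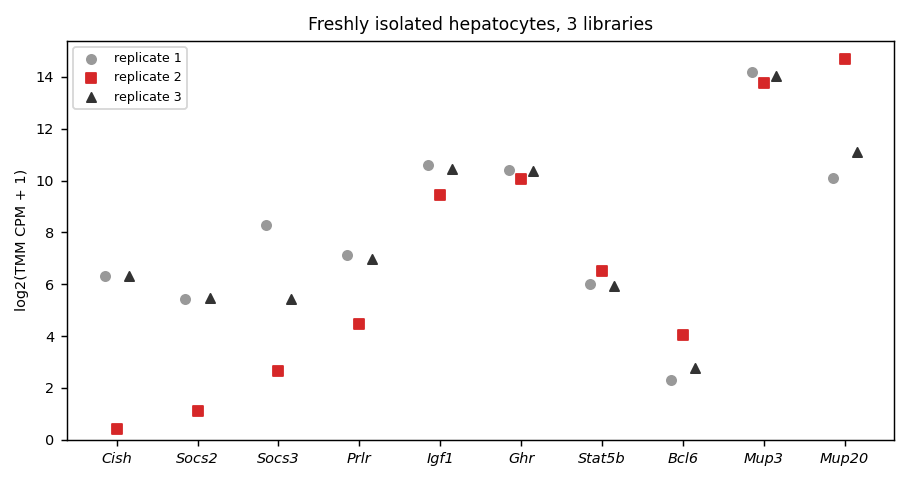
Levels of axis genes in the 3 libraries of freshly isolated hepatocytes, as log2(CPM + 1), with replicate 2 drawn as a red square. Socs3, Prlr and Bcl6 were picked after their values had been seen. Cish at 0.350 CPM and Socs2 at 1.14 CPM sit far below the other replicates, and Mup20 at 26367 CPM far above them, whereas Ghr, Stat5b and Mup3 lie close together.

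Every member had its highest mean CPM in freshly isolated hepatocytes, though for Cish, Socs2 and Mup20 a cultured condition was higher by the mean of the log values. For Ghr, Stat5b, Igf1, Igfals, Mup3 and Car3 the lowest of the 3 hepatocyte libraries was above every library of the condition next in order. In each HepOrg comparison, 25.5% to 28.4% of all genes tested lay below freshly isolated hepatocytes without overlap. The share over all cultured conditions was not counted. The next condition differed from gene to gene: homeostatic assembloids at 2.5 weeks for Ghr, Igfals, Mup20 and Car3, MM HepOrgs at 2 weeks for Stat5b and Mup3, MM HepOrgs at 1 week for Cish, and fibrotic-like assembloids for Socs2 (1 week) and Igf1 (2.5 weeks). Lower in the order, neighbours overlapped except MM HepOrgs at 1 week above homeostatic assembloids at 2.5 weeks for Stat5b, homeostatic assembloids at 2.5 weeks above HM-Wnt HepOrgs at 2 weeks for Mup3, and fibrotic-like assembloids at 2.5 weeks above those at 1 week for Car3.

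**Figure D2:**
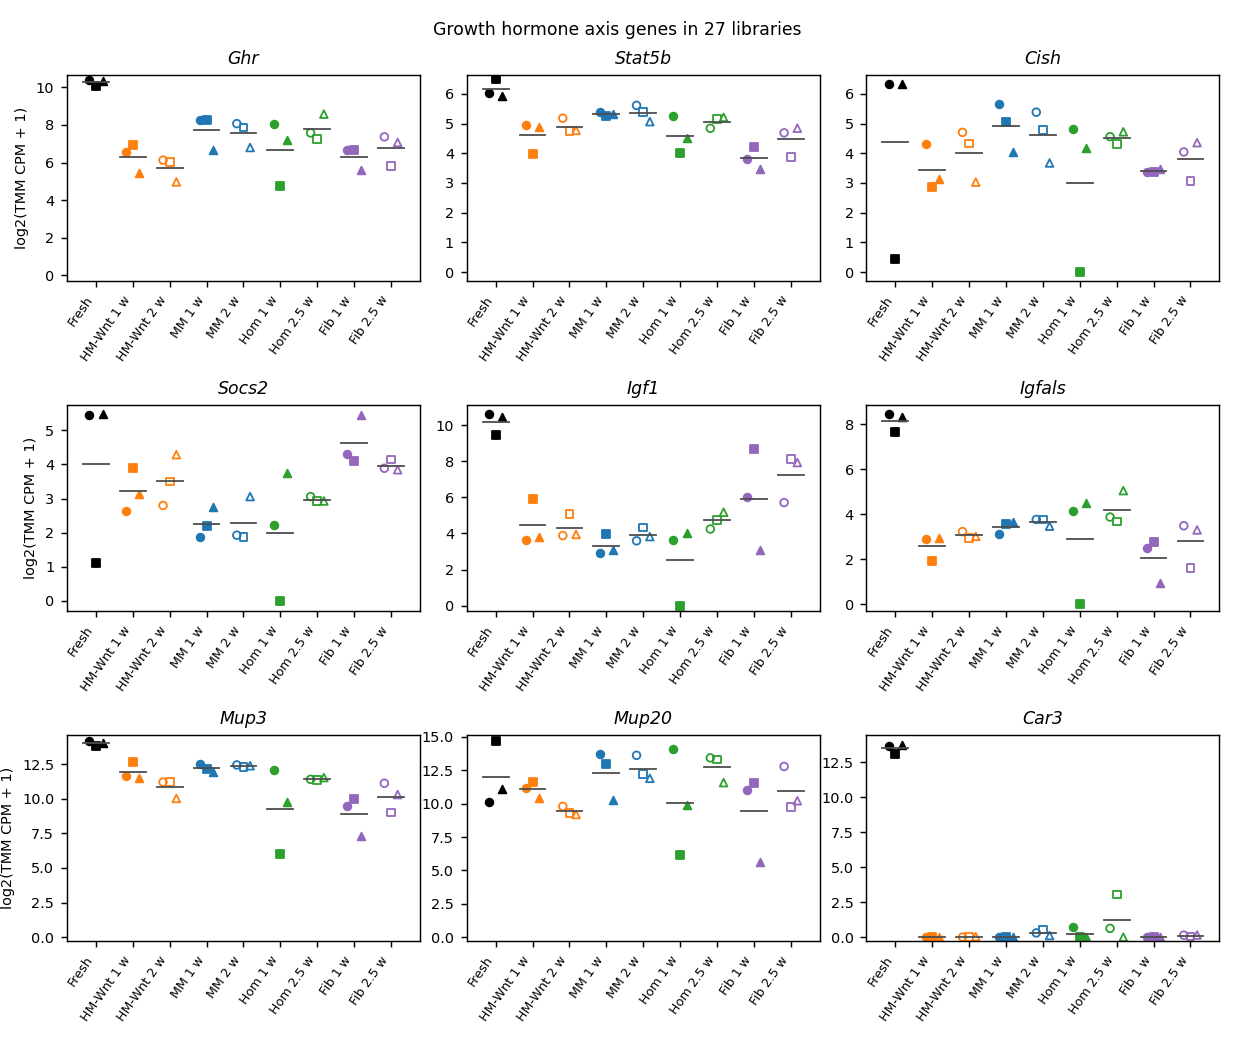
Levels of the 9 members in each of the 27 libraries as log2(CPM + 1), 1 panel per gene and 1 column per condition. Circles, squares and triangles are replicates 1, 2 and 3, open symbols are the later time and lines are means of the log values. Freshly isolated hepatocytes are clear of all other libraries for Ghr, Stat5b, Igf1, Igfals, Mup3 and Car3, while for Cish, Socs2 and Mup20 some lines of cultured conditions lie above theirs, and their low points of Cish and Socs2 are replicate 2. How many of all genes set freshly isolated hepatocytes clear of all other libraries was not counted.

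The comparison of HepOrgs with freshly isolated hepatocytes asks how far the axis was kept in culture. Of the 9 members, 6 were lower in HM-Wnt medium at 1 week, where 24.8% of all genes tested were lower, and 7 were lower at 2 weeks, where 25.7% were. In MM HepOrgs 7 members were lower at 1 week and 7 at 2 weeks, where 21.3% and 20.0% of all genes were lower. Without hepatocyte replicate 3, whose genotype label differs, 6, 7, 6 and 6 were lower. No member was higher in any of the 4 comparisons, which share the same 3 hepatocyte libraries. The median log2 fold change of the members was −2.30, −3.85, −2.40 and −2.59 in that order. It was 0.02, 0.03, 0.00 and −0.01 over all genes tested and −1.29, −1.83, −1.78 and −2.65 over the 10 hepatocyte markers. The part of a general fall of hepatocyte RNA in the fall of the members was not tested. Ghr, Stat5b, Igf1, Igfals, Mup3 and Car3 fell in all 4, with no overlap between libraries. Between 25.5% and 28.4% of all genes tested lay below freshly isolated hepatocytes without overlap in each of the 4. Socs2 fell in MM only, Mup20 fell in HM-Wnt at 2 weeks only, and Cish passed the threshold in none; whether these effects differ between the media is tested further on.

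**Figure D3:**
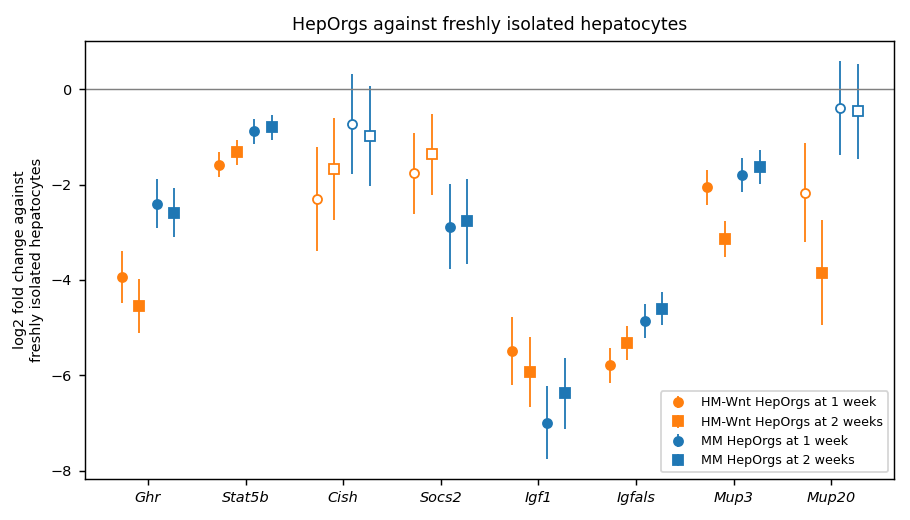
Log2 fold changes of 8 members in HepOrgs against freshly isolated hepatocytes (bars are standard errors), by medium and time, with filled symbols where the adjusted p was under 0.05. Igf1 and Igfals lie lowest at −4.60 to −6.99, Stat5b lies between −0.80 and −1.59, and the bars of Cish, Socs2 and Mup20 are the longest.

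Ghr, the receptor of the hormone and the entry point of the axis, fell in every HepOrg condition, and its means were higher in MM than in HM-Wnt. It was at 92.3, 119.5 and 42.1 CPM in HM-Wnt at 1 week and 69.0, 63.7 and 30.3 CPM at 2 weeks, and at 305, 306 and 99.7 CPM in MM at 1 week and 268, 233 and 110.4 CPM at 2 weeks. Replicate 3 was the lowest in all 4 conditions, and all 12 libraries lay below the lowest of freshly isolated hepatocytes, 1080.0 CPM. Means in HepOrgs were 6.79% and 4.36% of the hepatocyte mean of 1247 ± 146 CPM (SD, n = 3) in HM-Wnt and 19.0% and 16.4% in MM. The log2 fold change was −3.93 ± 0.55 (edgeR adjusted p = 7.36e-05) and −4.56 ± 0.56 (edgeR adjusted p = 2.49e-05) in HM-Wnt, and −2.40 ± 0.51 (edgeR adjusted p = 0.00226) and −2.59 ± 0.52 (edgeR adjusted p = 0.0015) in MM. Ghr (ENSMUSG00000055737) lies on the minus strand of chr15:3347235-3613024 in GRCm39.

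Stat5b, the transcription factor that relays the signal, also fell. Its levels were 29.8, 14.8 and 28.3 CPM in HM-Wnt at 1 week, 35.3, 25.9 and 26.3 at 2 weeks, and 40.7, 37.5 and 39.0 CPM in MM at 1 week and 48.0, 40.7 and 32.5 at 2 weeks. HepOrg means were between 34.2% and 56.8% of the hepatocyte mean, 71.1 ± 16.1 CPM (SD, n = 3). Log2 fold changes were −1.59 ± 0.26 (edgeR adjusted p = 2.98e-04) and −1.32 ± 0.26 (edgeR adjusted p = 9.69e-04) in HM-Wnt, and −0.88 ± 0.26 (edgeR adjusted p = 0.0151) and −0.80 ± 0.26 (edgeR adjusted p = 0.0254) in MM. Without replicate 2 of the freshly isolated hepatocytes, whose Stat5b level was the highest, Stat5b lost its call in MM at both times (−0.69 and −0.58). On the scale of log2(TPM + 1) it was also not called in HM-Wnt at 2 weeks (−0.39) or in MM (−0.19 and −0.23). There the median of all genes lay 0.40 to 0.68 above 0. Stat5b was at 4.29, 5.40 and 4.03 TPM in freshly isolated hepatocytes, where adding 1 shrinks log2 differences. With all 27 libraries in 1 fit it was not called in MM (edgeR adjusted p = 0.1 and 0.128), and at 2 weeks it was also lost without MM replicate 2 (−0.81) or replicate 3 (−0.62). Stat5b (ENSMUSG00000020919) lies on the minus strand of chr11:100671556-100741589.

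Receptors and kinases that share this pathway were called at shares near those of all genes. Of 7 such genes tested, 1 was higher and 2 lower in HM-Wnt at 1 week, 1 higher and 1 lower at 2 weeks, and in MM the counts were 1 and 1, then 2 and 2; over all genes 24.9%, 26.1%, 21.5% and 19.7% were higher in the 4 comparisons. Prlr, the receptor closest to GHR in the family, fell in all 4 comparisons with log2 fold changes of −6.45, −7.51, −7.31 and −6.45 and stayed at or below 2.15 CPM in HepOrgs. Jak2, the kinase bound to GHR, rose by 0.81, 0.90, 0.82 and 1.13 (edgeR adjusted p between 0.00482 and 0.0259). The related kinase gene Tyk2 was lower in HM-Wnt at 1 week (−0.91) and in MM at 2 weeks (−0.86).

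Cish and Socs2, the immediate feedback targets of STAT5B, could not be placed against freshly isolated hepatocytes without naming replicate 2. Cish was at 19.1, 6.28 and 7.80 CPM in HM-Wnt at 1 week, 25.0, 19.0 and 7.15 at 2 weeks, and 49.8, 31.8 and 15.3 CPM in MM at 1 week and 40.7, 26.7 and 11.7 at 2 weeks. Every HepOrg library therefore lay above hepatocyte replicate 2 (0.350 CPM) and below replicates 1 and 3 (79.6 and 79.3 CPM). The log2 fold changes were −2.30 ± 1.09 (edgeR adjusted p = 0.0947) and −1.68 ± 1.07 (edgeR adjusted p = 0.204) in HM-Wnt and −0.73 ± 1.04 (edgeR adjusted p = 0.596) and −0.99 ± 1.05 (edgeR adjusted p = 0.478) in MM. Without replicate 2, Cish was lower in HM-Wnt at 1 week, at −2.87 ± 0.66 (edgeR adjusted p = 0.00352), and at 2 weeks, at −2.25 ± 0.65 (edgeR adjusted p = 0.0124), and it was not called in MM.

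Socs2 differed from Cish in the order of the media. It was at 5.23, 13.7 and 7.69 CPM in HM-Wnt at 1 week and 5.95, 10.3 and 18.5 at 2 weeks, and at 2.66, 3.56 and 5.67 CPM in MM at 1 week and 2.80, 2.67 and 7.32 at 2 weeks. All 12 values lay between hepatocyte replicate 2 (1.14 CPM) and the other two (42.4 and 43.5 CPM). The log2 fold change was −1.77 ± 0.86 (edgeR adjusted p = 0.102) and −1.37 ± 0.85 (edgeR adjusted p = 0.192) in HM-Wnt, and −2.89 ± 0.89 (edgeR adjusted p = 0.0193) and −2.77 ± 0.89 (edgeR adjusted p = 0.0244) in MM. Leaving out hepatocyte replicate 2 gave lower Socs2 in all 4 comparisons (−2.33, −1.92, −3.45 and −3.31). The MM calls were lost on log2(TPM + 1) (−1.09 and −1.11), where Socs2 was at 6.23, 0.151 and 6.45 TPM in freshly isolated hepatocytes. They were also lost with all 27 libraries in 1 fit (edgeR adjusted p = 0.124 and 0.145). The same held without hepatocyte replicate 1 (log2 fold changes −2.49 and −2.36) or replicate 3 (−2.46 and −2.32). It also held without replicate 1 of the MM group compared (−2.67 and −2.55) or without its replicate 2 (−2.83 and −2.53).

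Promoter sequence was examined for the motif TTCNNNGAA, the consensus bound by STAT5 dimers, which reads the same on both strands. RefSeq promoter windows of GRCm38.p6, each from 250 bases before to 50 bases after a transcript start, were found for 6 of the 9 members. The motif was present in windows of 2 members, Cish and Igfals, and not in those of Ghr, Stat5b, Igf1 or Mup3; 9.55% of 27025 genes and 8.3% of 32851 windows held it. The sites are shown because both genes are members that STAT5B is known to act on, with the motif in capitals.
Cish: cgcccagttTTCCTGGAAagTTCTTGGAAa
Igfals, first window: atctataatTTCTCAGAAaagaggctg
Igfals, other window: tgccaggtgTTCCTAGAAgaggccctg
The Cish stretch holds 2 matches that begin 0 and 11 bases after the RefSeq start and lies at chr9:107173849-107173878 on the plus strand of GRCm39, where an annotated exon overlaps it. The Igfals stretches lie at chr17:25096573-25096599 and chr17:25097138-25097164, plus strand, beginning the match 236 and 58 bases before separate RefSeq starts, inside the annotated gene and outside its exons. A match is a description of letters and was not tied to any level here. In the annotation read here, Cish (ENSMUSG00000032578, chr9:107173225-107179983, plus strand), Socs2 (ENSMUSG00000020027, chr10:95219523-95253929, minus strand), Igfals and Car3 share exonic bases with lncRNA genes on the other strand. SMARTseq2 libraries do not mark strand, so reads on such bases cannot be told apart. The annotation used for counting can differ, as Socs2 has a length of 31819 bases in the count table against a span of 34407 here.

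Other genes that restrain the receptor were also called both ways, as all genes were. Of 13 tested, 4 were higher and 4 lower at 1 week in HM-Wnt, 5 and 1 at 2 weeks, 4 and 2 in MM at 1 week and 3 and 4 at 2 weeks, where 24.9% and 24.8%, 26.1% and 25.7%, 21.5% and 21.3%, and 19.7% and 20.0% of all genes were higher and lower. Socs5 rose in all 4, by 3.04, 3.86, 2.07 and 2.56 on the log2 scale. It was at 1.97, 3.41 and 2.80 CPM in freshly isolated hepatocytes and at 31.2, 32.5 and 60.3 CPM in HM-Wnt HepOrgs at 2 weeks. Socs1 rose by 3.21 and 2.44 in HM-Wnt and by 2.03 in MM at 1 week, and the phosphatase gene Ptpn6 fell in HM-Wnt (−1.27 and −1.08).

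Igf1, which encodes the circulating growth factor that hepatocytes make under growth hormone, and Igfals, which encodes its acid-labile carrier subunit, fell to a few percent of their level. Igf1 was at 1548, 702 and 1401 CPM in freshly isolated hepatocytes. It was at 11.6, 60.2 and 12.8 CPM in HM-Wnt at 1 week, 13.8, 33.1 and 14.4 at 2 weeks, and 6.58, 14.7 and 7.62 CPM in MM at 1 week and 11.1, 19.2 and 13.2 at 2 weeks. Replicate 2 was the highest HepOrg library in all 4 conditions, and the highest of all HepOrg values, 60.2 CPM, lay far below the lowest hepatocyte value, 702 CPM. Means were 2.32% and 1.68% of the hepatocyte mean in HM-Wnt and 0.791% and 1.19% in MM. The log2 fold changes were −5.50 ± 0.71 (edgeR adjusted p = 4.12e-05) and −5.93 ± 0.72 (edgeR adjusted p = 2.23e-05) in HM-Wnt and −6.99 ± 0.76 (edgeR adjusted p = 1.31e-05) and −6.38 ± 0.74 (edgeR adjusted p = 2.41e-05) in MM. Igf1 (ENSMUSG00000020053) lies on the plus strand of chr10:87693642-87772904.

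Igfals was at 6.53, 2.75 and 6.72 CPM in HM-Wnt at 1 week, 8.42, 6.71 and 7.15 at 2 weeks, and 7.79, 11.1 and 11.6 CPM in MM at 1 week and 12.7, 12.7 and 10.2 at 2 weeks. The highest HepOrg library held 12.7 CPM and the lowest hepatocyte library 200.1 CPM. Its means were 1.83% and 2.54% of the hepatocyte mean, 292 ± 80.4 CPM (SD, n = 3), in HM-Wnt and 3.48% and 4.06% in MM. Log2 fold changes were −5.79 ± 0.37 (edgeR adjusted p = 1.50e-07) and −5.33 ± 0.36 (edgeR adjusted p = 2.11e-07) in HM-Wnt and −4.86 ± 0.35 (edgeR adjusted p = 5.01e-07) and −4.60 ± 0.35 (edgeR adjusted p = 7.72e-07) in MM. Igfals (ENSMUSG00000046070) lies on the plus strand of chr17:25084971-25100984.

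The wider IGF system held both rising and falling genes, and so did the table as a whole, where 19.7% to 26.1% of genes were higher and 20.0% to 25.7% lower. Of 15 genes tested, 6 were higher and 4 lower in HM-Wnt at 1 week, 6 and 5 at 2 weeks, 6 and 4 in MM at 1 week and 5 and 4 at 2 weeks, and Igf2 was at 0 in every library and was not tested. Igfbp2, a carrier made by hepatocytes, was at 1056, 1654 and 956 CPM in freshly isolated hepatocytes and at most 11.5 CPM in HepOrgs. Its log2 fold changes were −8.47 and −7.92 in HM-Wnt and −10.35 and −11.37 in MM. Irs2, the adaptor of the insulin and IGF receptors, fell in all 4 (−1.79, −1.78, −1.62 and −2.12). Stc1, a glycoprotein that blocks the protease acting on IGF carriers, had 1 count in all over the 3 hepatocyte libraries. It reached 90.7, 99.6 and 100.3 CPM in HM-Wnt at 1 week and 75.9, 64.1 and 94.1 CPM at 2 weeks, and was past the threshold against freshly isolated hepatocytes in all 4 conditions. Igfbp6, another carrier, rose by 7.57 in HM-Wnt and by 6.65 in MM at 1 week.

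Mup3 and Mup20 encode urinary proteins that carry pheromones. Mup3 was at 3184, 6387 and 2847 CPM in HM-Wnt at 1 week, 2354, 2405 and 1039 at 2 weeks, and 5942, 4577 and 3958 CPM in MM at 1 week and 5551, 5035 and 5332 at 2 weeks, with 14056 CPM in the lowest hepatocyte library. Its means were 24.9% and 11.6% of the hepatocyte mean in HM-Wnt and 29.0% and 31.9% in MM. The log2 fold changes were −2.06 ± 0.36 (edgeR adjusted p = 4.48e-04) and −3.14 ± 0.38 (edgeR adjusted p = 2.02e-05) in HM-Wnt and −1.80 ± 0.36 (edgeR adjusted p = 0.00148) and −1.64 ± 0.36 (edgeR adjusted p = 0.00278) in MM. With all 27 libraries in 1 fit only the call in HM-Wnt at 2 weeks was kept, and the edgeR adjusted p was 0.107 in HM-Wnt at 1 week and 0.185 and 0.238 in MM.

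Mup20, known as darcin, varied from 1098 to 26367 CPM across the hepatocyte libraries alone. It was at 2303, 3125 and 1387 CPM in HM-Wnt at 1 week, 888, 635 and 582 at 2 weeks, and 13143, 8178 and 1232 CPM in MM at 1 week and 12533, 4714 and 3799 at 2 weeks, against 1098, 26367 and 2219 CPM in freshly isolated hepatocytes. In HM-Wnt at 2 weeks all 3 libraries lay below the lowest hepatocyte library, at −3.85 ± 1.11 (edgeR adjusted p = 0.0104). That call was lost on log2(TPM + 1) (−1.75), with all 27 libraries in 1 fit (edgeR adjusted p = 0.0864) and without hepatocyte replicate 2 (−1.27). Elsewhere the groups overlapped, with log2 fold changes of −2.17 ± 1.03 (edgeR adjusted p = 0.0957) in HM-Wnt at 1 week and −0.39 ± 0.99 (edgeR adjusted p = 0.771) and −0.47 ± 0.99 (edgeR adjusted p = 0.737) in MM.

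Most Mup genes fell, and the share of Mup20 among Mup counts varied between libraries. Of 21 Mup genes tested, Mup3 and Mup20 included, 14 and 18 were lower in HM-Wnt at 1 and 2 weeks and 15 and 13 in MM, where 24.8%, 25.7%, 21.3% and 20.0% of all genes were lower. Mup6 was higher in MM at both times (3.56 and 3.57). The lowest log2 fold changes were those of Mup21 in HM-Wnt (−8.98 and −10.53) and of Mup9 in MM (−8.59 and −9.06). Without hepatocyte replicate 2 the counts of lower genes were 11, 14, 10 and 10, and Mup11 and Mup14 changed sign. Mup20 made up 4.33%, 47.8% and 6.78% of Mup counts in the hepatocyte libraries, 34.0%, 29.7% and 29.9% in HM-Wnt at 1 week and 64.5%, 60.0% and 21.5% in MM at 1 week. Mup genes are near-identical copies, and how reads shared by them were counted is not stated, so values of single Mup genes are uncertain. In the annotation read here, Mup3 (ENSMUSG00000066154, chr4:61947447-62005620, minus strand) spans Mup20 (ENSMUSG00000078672, chr4:61968464-61972395, minus strand) and shares exonic bases with the pseudogene Mup-ps21. The count table gives Mup3 a length of 3867 bases against a span of 58174 here. The gene model that was counted was therefore shorter, and its overlaps were not examined.

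Car3 was the sharpest case, with 12874, 8881 and 14086 CPM in freshly isolated hepatocytes and almost none elsewhere. The 3 hepatocyte libraries held 483352, 202883 and 462645 counts. In HM-Wnt there were 0, 0 and 0 counts at 1 week and 0, 0 and 1 at 2 weeks, and in MM 1, 0 and 1 counts at 1 week and 9, 20 and 3 at 2 weeks. In HM-Wnt at 1 week, with 0 counts, the lower end of the 95% exact Poisson interval put Car3 336686-fold below the hepatocyte mean. In MM at 2 weeks the hepatocyte mean was 44096.9-fold the pooled level (the counts of the group over its summed library size), with a 95% exact Poisson interval of 31236.7 to 64469.3 that covers counting error only. Car3 was past the threshold in all 4 comparisons, with edgeR adjusted p between 4.85e-08 and 1.01e-07. Car3 (ENSMUSG00000027559) lies on the plus strand of chr3:14928489-14937595.

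Of 12 other carbonic anhydrase genes tested, 2 were higher and 4 lower in each of the 4 comparisons, against 19.7% to 26.1% of all genes higher and 20.0% to 25.7% lower. Car5a, the mitochondrial form of hepatocytes, fell in all 4, with log2 fold changes of −8.53 and −9.22 in HM-Wnt and −5.60 and −5.65 in MM. Car8 was lower by a like amount (−7.35, −8.08, −5.95 and −6.79). The membrane forms Car9 and Car12 rose, by 4.35 and 3.11 in HM-Wnt at 1 week and by 2.78 and 2.28 in MM at 2 weeks.

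Sex-biased liver genes are other known readouts of growth hormone pulses, and most of the male-biased ones fell. Of 11 male-biased genes tested, 9, 10, 9 and 9 were lower in HM-Wnt at 1 and 2 weeks and MM at 1 and 2 weeks, and none was higher, where 20.0% to 25.7% of all genes were lower; on the scale of log2(TPM + 1) a single gene was higher in the first 3. Elovl3, a fatty acid elongase gene, was at 281, 1018 and 1762 CPM in freshly isolated hepatocytes and at most 13.6 CPM in HepOrgs. Slco1a1, a bile acid and steroid transporter gene, fell with log2 fold changes of −10.51 and −11.32 in HM-Wnt and −9.37 and −9.39 in MM. Of 8 female-biased genes tested, 2 were higher and 2 lower in HM-Wnt at each time, and 1 and 1 in MM at each time. Over all genes tested 19.7% to 26.1% were higher. Cyp2a4 rose in all 4, by 6.29, 5.38, 5.67 and 6.29. The sex of the mice is not labelled by library. Summed levels of 4 Y-linked genes were 157 to 201 CPM in the hepatocyte libraries and 143 to 230 CPM in the 12 HepOrg libraries, so all of them held RNA of male cells.

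The comparison of MM with HM-Wnt asks what withdrawing the expansion factors did to the axis. At 2 weeks Ghr, Mup3 and Mup20 were higher in MM, 3 of the 8 members tested, where 6.84% of all genes tested were higher, and no member was lower, where 4.61% of all genes were. At 1 week none of the 8 was past the threshold, where 2.98% of all genes were in either direction, although 7 had an unadjusted p under 0.05 and DESeq2 called 3 (Ghr, Igfals and Mup20). With all 27 libraries in 1 fit no member was called at either time (at 2 weeks edgeR adjusted p = 0.354 for Ghr, 0.73 for Mup3 and 0.556 for Mup20). The median log2 fold change of the members was 0.80 and 0.72 at 1 and 2 weeks, against 0.00 and −0.02 over all genes. Car3 had too few counts to be tested. Same-numbered HepOrg libraries deviated together, so the fit with the replicate number as a block is given beside the one without it.

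Ghr was 305, 306 and 99.7 CPM in MM against 92.3, 119.5 and 42.1 CPM in HM-Wnt at 1 week, so each replicate number was higher in MM although the groups overlapped. Its log2 difference was 1.52 ± 0.53 (edgeR adjusted p = 0.125), and with the block 1.46 ± 0.15 (edgeR adjusted p = 0.0018). At 2 weeks all MM libraries lay above those in HM-Wnt, as for 16.5% of all genes, at 268, 233 and 110.4 CPM against 69.0, 63.7 and 30.3 CPM, and the difference was 1.98 ± 0.53 (edgeR adjusted p = 0.0369) and, with the block, 1.96 ± 0.15 (edgeR adjusted p = 5.78e-05). Stat5b differed by 0.69 ± 0.26 (edgeR adjusted p = 0.152) at 1 week, where its MM libraries lay above the others without overlap, as did those of 12.7% of all genes, and by 0.53 ± 0.26 (edgeR adjusted p = 0.202) at 2 weeks.

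The feedback genes had differences of opposite sign that did not pass the threshold without the block. Cish differed by 1.56 ± 0.63 (edgeR adjusted p = 0.176) at 1 week and 0.70 ± 0.61 (edgeR adjusted p = 0.503) at 2 weeks, and was higher in MM in each of the 6 pairs of same-numbered libraries. With the block Cish was called at 1 week (1.49 ± 0.29, edgeR adjusted p = 0.0137). Socs2 differed by −1.13 ± 0.50 (edgeR adjusted p = 0.215) at 1 week and −1.39 ± 0.51 (edgeR adjusted p = 0.0975) at 2 weeks, and was lower in MM in each of the 6 pairs. The pairs repeat the same replicate numbers at both times and same-numbered libraries deviated together, so they are not independent. The share of all genes with the same sign in every pair was not counted. With the block Socs2 was called at 2 weeks (−1.35 ± 0.34, edgeR adjusted p = 0.0191) and not at 1 week (−1.17, edgeR adjusted p = 0.0551).

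Igf1 and Igfals also had differences of opposite sign. Igf1 differed by −1.50 ± 0.61 (edgeR adjusted p = 0.18) at 1 week and −0.44 ± 0.60 (edgeR adjusted p = 0.688) at 2 weeks, and it was called lower in MM at 1 week with the block (−1.24 ± 0.27, edgeR adjusted p = 0.0243). Igfals differed by 0.92 ± 0.30 (edgeR adjusted p = 0.113) and 0.74 ± 0.30 (edgeR adjusted p = 0.135), and it was not called with the block at either time. Its MM libraries all lay above its HM-Wnt libraries at both times, as did those of 12.7% of all genes at 1 week and 16.5% at 2 weeks. For both genes every group mean in either medium was at most 4.06% of the hepatocyte mean.

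Of the 8 members tested, Mup20 had the highest log2 difference between the media at both times. Mup3 differed by 0.25 ± 0.36 (edgeR adjusted p = 0.714) at 1 week, with overlapping libraries, and rose by 1.52 ± 0.37 (edgeR adjusted p = 0.0243) at 2 weeks, with 5551, 5035 and 5332 CPM in MM against 2354, 2405 and 1039 CPM in HM-Wnt. Mup20 differed by 1.77 ± 0.71 (edgeR adjusted p = 0.174) at 1 week and rose by 3.39 ± 0.75 (edgeR adjusted p = 0.0162) at 2 weeks, where MM libraries held 12533, 4714 and 3799 CPM and HM-Wnt libraries 888, 635 and 582 CPM. Of 20 Mup genes tested, 3 were higher in MM at 2 weeks (Mup3, Mup20 and Mup21, at 4.39) and none at 1 week, where 6.84% and 1.76% of all genes were higher. With the block 10 and 4 were higher, where 19.6% and 9.48% of all genes were called in either direction. The calls at 2 weeks depended on single libraries. None of the members was called without replicate 1 of MM, replicate 1 of HM-Wnt or replicate 3 of HM-Wnt, Mup20 alone was called without replicate 2 of MM (3.59), and Mup3 alone without replicate 2 of HM-Wnt (1.71). Without replicate 3 of MM, 4 members were called at 2 weeks, Socs2 being added (−1.97), and 1 at 1 week (Mup20, 2.27). With the block 3 members were called at 1 week, where 9.48% of all genes were, and 4 at 2 weeks, where 19.6% were.

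**Figure D4:**
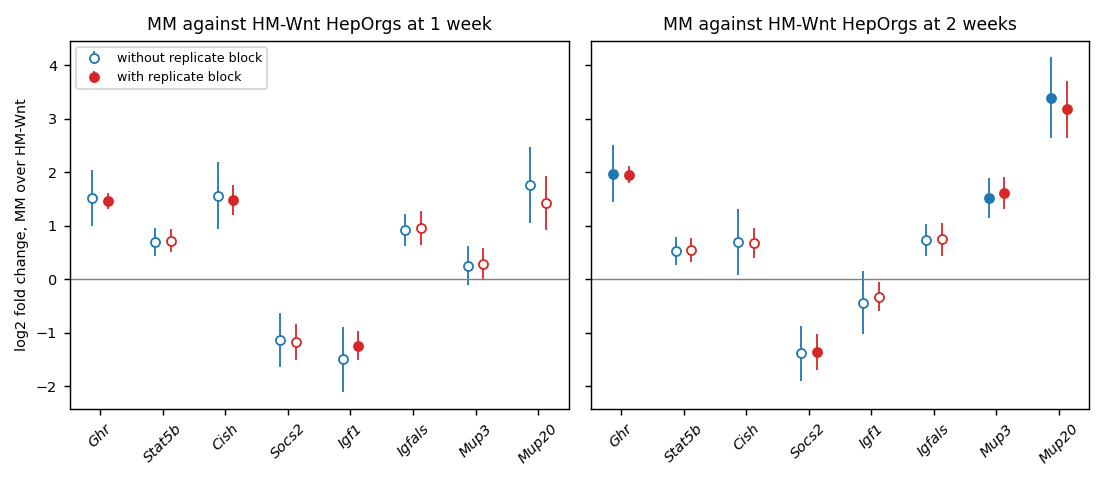
Log2 fold changes of 8 members in MM against HM-Wnt HepOrgs at 1 and 2 weeks (bars are standard errors), without the replicate block in blue and with it in red, with filled symbols where the adjusted p was under 0.05. Ghr and Mup20 lie above 0 at both times and Socs2 and Igf1 below 0, and the block shortens the bar of Ghr from 0.53 to 0.15.

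Genes around the members moved with the medium as well. No receptor or kinase gene of 7 was called at either time, and among 13 genes that restrain the receptor Socs5 fell in MM at 2 weeks (−1.29 ± 0.29, edgeR adjusted p = 0.0165). In the IGF system 2 of 15 genes were lower in MM at 1 week and 4 at 2 weeks, and none higher. Over all genes tested 1.22% and 4.61% were lower and 1.76% and 6.84% higher. Igfbp1, a carrier known to be induced by fasting and stress, was at 1629, 1155 and 2726 CPM in HM-Wnt at 1 week and 354, 298 and 419 CPM in MM, a log2 difference of −2.36 ± 0.31 (edgeR adjusted p = 0.0061), and at 2 weeks the difference was −2.38 ± 0.31 (edgeR adjusted p = 0.00127). Stc1 was lower in MM at both times (−2.86 and −4.40), and Igfbp3, the carrier that joins IGF-1 and the Igfals product, differed by −4.29 ± 0.77 (edgeR adjusted p = 0.00608) at 2 weeks.

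Male-biased genes were partly higher in MM at 2 weeks. Of 11 tested, 5 were higher and 1 lower (Susd4, −2.21), with none at 1 week. Over all genes tested 6.84% were higher and 4.61% lower at 2 weeks, and 1.76% and 1.22% at 1 week. With the block 8 were higher and 1 lower at 2 weeks, where 19.6% of all genes were called in either direction. At 1 week 4 were higher with the block, where 9.48% of all genes were called in either direction. Cyp4a12a, a male-specific hydroxylase gene, was at 79.9, 243 and 2.94 CPM in MM at 2 weeks and 0.303, 0.352 and 0.425 CPM in HM-Wnt, a log2 difference of 8.14 ± 1.94 (edgeR adjusted p = 0.0226), with replicate 3 far below the other MM libraries. Elovl3 rose by 4.47. Of 8 female-biased genes tested, Cyp3a16 was lower in MM at both times (−3.95 and −3.79) and Cyp2b9 higher at 2 weeks (3.31). Car5a rose by 2.91 and 3.60, and Car14 by 1.94 at 2 weeks, of 12 other carbonic anhydrase genes.

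Time in culture moved no member past the threshold in either medium by edgeR. In HM-Wnt 0% of all genes tested were called between 2 weeks and 1 week (DESeq2 called 22 genes), and in MM 0.0154% were (DESeq2 called 308). Mup3 and Mup20 lay lower at 2 weeks in HM-Wnt without overlap, as did 7.31% of all genes, at −1.08 ± 0.37 (unadjusted p = 0.0126, edgeR adjusted p = 0.556) and −1.68 ± 0.71 (unadjusted p = 0.0356, edgeR adjusted p = 0.556). In MM the log2 differences of the 8 members ran from −0.24 to 0.64, with 0 at an unadjusted p under 0.05. The change of the MM effect from 1 to 2 weeks, tested as an interaction, was past the threshold for no member and for 0% of all genes (DESeq2 called 46), with Mup3 at 1.26 ± 0.51 (unadjusted p = 0.0307, edgeR adjusted p = 0.671).

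Axis genes varied widely within assembloid conditions, and the 1-week libraries that stood apart lie in these groups. Igf1, which mesenchymal cells also make, was at 11.3, 0 and 15.1 CPM in homeostatic assembloids at 1 week and 18.0, 25.9 and 35.2 CPM at 2.5 weeks. In fibrotic-like assembloids it was at 64.0, 413 and 7.45 CPM at 1 week and 51.3, 276 and 242 CPM at 2.5 weeks. The 3 highest Igf1 levels of all 24 cultured libraries were in fibrotic-like assembloids, and at 2.5 weeks all 3 lay above the homeostatic ones. The log2 difference was 4.15 ± 1.81 (edgeR adjusted p = 0.341) at 1 week and 2.81 ± 1.70 (edgeR adjusted p = 0.869) at 2.5 weeks.

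The summed level of 9 mesenchyme markers is given beside Igf1. It was 2465, 6286 and 718 CPM in fibrotic-like assembloids at 1 week and 1421, 4662 and 5275 CPM at 2.5 weeks, so within each group the library with the least Igf1 had the lowest sum. In homeostatic assembloids it was 132, 2116 and 383 CPM at 1 week, where the library at 2116 CPM is the one with counts on 8463 genes and none of Igf1, and 195, 273 and 246 CPM at 2.5 weeks. The part of mesenchymal RNA in the Igf1 level was not tested.

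No member passed the threshold between fibrotic-like and homeostatic assembloids at either time, where 0% of all genes did by edgeR and DESeq2 called 867 genes at 1 week and 273 at 2.5 weeks. At an unadjusted p under 0.05 there was 1 member at 1 week (Igf1) and 0 at 2.5 weeks. The count over all genes at 1 week turned on replicate 2 of the homeostatic assembloids: without it edgeR called 1181 genes and still no member, though 7 members had an unadjusted p under 0.05. With all 27 libraries in 1 fit it called 910 genes at 1 week and 0 at 2.5 weeks, and with both 1-week libraries that stood apart left out 278 and 464, again with no member. Socs2 was at 18.9, 16.2 and 42.5 CPM in fibrotic-like and 3.69, 0 and 12.5 CPM in homeostatic assembloids at 1 week and at 13.8, 16.7 and 13.4 and 7.33, 6.61 and 6.61 CPM at 2.5 weeks, without overlap at either time. Its log2 difference was 2.21 ± 1.40 (edgeR adjusted p = 0.519) and 1.05 ± 1.35 (edgeR adjusted p = 1). Groups of 23.9% of all genes tested did not overlap at 1 week and of 37.0% at 2.5 weeks. At 2.5 weeks Igf1, Igfals and Mup3 also did not overlap. Igfals was at 10.3, 2.08 and 8.93 CPM in fibrotic-like and 13.8, 11.9 and 32.3 CPM in homeostatic assembloids (−1.47 ± 1.56, edgeR adjusted p = 1). Mup3 was at 2222, 513 and 1259.9 and 2702, 2605 and 2949 CPM (−1.08 ± 1.12, edgeR adjusted p = 1), and summed hepatocyte markers were 22868, 6948 and 28316 CPM and 23273, 22452 and 22020 CPM. With both of those libraries left out Igf1 was at 4.13 ± 1.00 (edgeR adjusted p = 0.0636) at 1 week and 2.81 ± 0.77 (edgeR adjusted p = 0.0795) at 2.5 weeks.

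The receptor and its relay lay below every hepatocyte library in all 12 assembloid libraries. How many of all genes did so was not counted. Summed hepatocyte markers ran from 910 to 30110 CPM in assembloids and from 69854 to 105993 CPM in freshly isolated hepatocytes. The part of this difference in the levels of Ghr and Stat5b was not tested. Ghr was at 265, 26.2 and 144 CPM in homeostatic assembloids at 1 week, 190.2, 150.2 and 381 at 2.5 weeks, and 99.6, 100.0 and 47.2 CPM in fibrotic-like assembloids at 1 week and 164, 55.7 and 133 at 2.5 weeks. The 2 lowest of these, 26.2 and 47.2 CPM, are the libraries that stood apart. Stat5b ran from 10.2 to 37.0 CPM and Cish from 0 to 27.2 CPM over the 12 assembloid libraries. Mup20 ran from 49.8 to 17006 CPM and Mup3 from 62.2 to 4248 CPM, with the lowest values of both in the libraries that stood apart. Car3 counts were 23, 0 and 1 in homeostatic assembloids at 1 week, 29, 356 and 0 at 2.5 weeks, 0, 2 and 2 in fibrotic-like assembloids at 1 week and 5, 2 and 7 at 2.5 weeks. The hepatocyte mean of Car3 was 4200.65-fold the pooled level of homeostatic assembloids at 2.5 weeks (95% exact Poisson interval 3801.31 to 4653.98, counting error only), and 356 of the 385 counts behind it came from replicate 2.

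**Figure D5:**
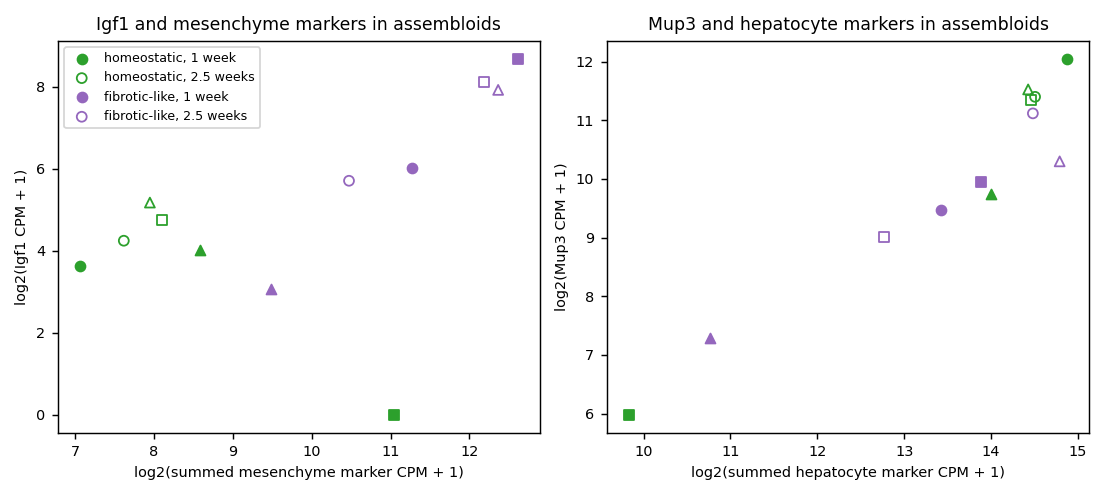
Igf1 against summed mesenchyme markers and Mup3 against summed hepatocyte markers in the 12 assembloid libraries, both in CPM on log scales, homeostatic in green and fibrotic-like in purple, with open symbols at 2.5 weeks. Igf1 is highest, at 413, 276 and 242 CPM, in the libraries with 6286, 4662 and 5275 CPM of mesenchyme markers, and Mup3 is lowest, at 62.2 and 155 CPM, in those with 910 and 1740 CPM of hepatocyte markers.

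Against MM HepOrgs at 1 week, which are grown without the other cells, no member passed in homeostatic or in fibrotic-like assembloids, where 0% of all genes were called in each (DESeq2 called 261 and 731 genes). The unadjusted p was under 0.05 for 0 and 2 members. In fibrotic-like assembloids Stat5b was at 13.1, 17.6 and 10.2 CPM against 40.7, 37.5 and 39.0 CPM, a difference of −1.55 ± 0.47 (edgeR adjusted p = 0.374). With the libraries that stood apart left out, 6 members were called in fibrotic-like assembloids, where 22.2% of all genes were, and that group then held 2 libraries. Igf1 (4.58 ± 0.77, edgeR adjusted p = 0.014) and Socs2 (2.08 ± 0.51, edgeR adjusted p = 0.0326) were then higher, and Stat5b (−1.40), Cish (−1.87), Igfals (edgeR adjusted p = 0.0387) and Mup3 (−2.57) lower. No member was called in homeostatic assembloids under that setting. The fibrotic-like library left out had the lowest Igf1 of its group, 7.45 CPM against 64.0 and 413 CPM. With all libraries kept, the median log2 fold change in fibrotic-like assembloids was 4.52 for mesenchyme markers and −1.41 for hepatocyte markers. The part of cell makeup in these calls was not tested. Time and the change of the fibrotic-like effect with time moved no member, with 0% of all genes called in homeostatic assembloids (DESeq2 called 15), in fibrotic-like assembloids (0) and for the change (0), and with 0 members at an unadjusted p under 0.05 in each.

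The genes most like each member across the 27 libraries, by Pearson correlation of log2 CPM among the 8351 genes whose mean log2 CPM reached 3, are given for each. The libraries share conditions and cell makeup, so these are descriptions. Ghr was most like Car5a (r = 0.971), Acbd5 and Kcnn2, Igfals most like Cyp2u1 (0.976), Dpyd and Cyp2c23, and Mup3 most like the lipase gene Lipc (0.973), Acaa2 and the apolipoprotein gene Apoc3. Cish was most like Alas1 (0.887), the first enzyme of haem synthesis, Socs3 and Igsf11, and Socs2 most like Akr1b3 (0.905), Nkapd1 and Upf3b. Cish and Socs2 had 0 counts in replicate 2 of the homeostatic assembloids at 1 week, and 8 and 26 in hepatocyte replicate 2. Correlations without these libraries were not computed. Igf1 was most like the coagulation factor gene F11 (0.941), the chemokine gene Cxcl12 and Abat, and Stat5b most like Pex5 (0.956), Slc25a22 and Atp5d. Mup20 was most like Cyb5r3 (0.867), Mug2 and Slc35b1, and Car3 most like the Kupffer cell gene Clec4f (0.944), Sult2a8 and Sds.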

How the data were processed

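SMARTseq2 reads were aligned with STAR to GRCm39 and counted with featureCounts by the authors, whose deposited table gives a whole-number count and a TPM for each gene and library. The treatment of reads matching several genes is not given in the sources used here. Of 37 libraries in the table, 27 were mapped to conditions and 10 were not used. Counts on 2 reporter rows (0 to 0.108% of a library) were left out.

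The main test was the quasi-likelihood test of edgeR 4.0.16 in R 4.3.3 (TMM, prior count 2, Benjamini-Hochberg adjustment, threshold 0.05) on genes kept by filterByExpr (count 10, total 15), tested on simulated data first. Separate fits held HepOrgs with freshly isolated hepatocytes (15 libraries, 13396 genes), HepOrgs (12, 12989), assembloids (12, 14253) and 1-week assembloids with MM HepOrgs (9, 13733). Alternatives were RLE factors, DESeq2 1.42.0, no filter, limma 3.58.1 on log2(TPM + 1) where 3 libraries reached 1 TPM, a fit of all 27 libraries, a block on the replicate number, and leaving out each library. Leaving out the 2 assembloid libraries that stood apart, and list counts under other settings, were added after seeing the data.

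Replicate numbers paired HepOrg libraries, since 18 of 18 same-numbered pairs had deviations correlated above 0.1 (0.127 to 0.503). In the fit with freshly isolated hepatocytes, which holds the same HepOrg libraries, 19 of 30 same-numbered pairs did. In assembloids 6 of 18 did, and in 1-week assembloids with MM HepOrgs 2 of 9. Members and gene lists were chosen with earlier results of these data known. All members are described, with up to 4 called genes per list and comparison and the 3 genes most like each member.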

Additional observations from a re-analysis of the deposited data

How the results depend on the processing

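No member changed direction in a comparison where it was called, under any alternative run. Over the alternatives other than leaving out libraries, 163 of 180 called log2 fold changes kept their call and 17 lost it, 11 with all 27 libraries in 1 fit and 6 on log2(TPM + 1). RLE factors, DESeq2, no filter and the block kept 30 of 30 each. With all 27 libraries in 1 fit the members called fell to 4 of 7 at 1 week and 4 of 7 at 2 weeks in MM against freshly isolated hepatocytes, and to 0 of 3 in MM against HM-Wnt at 2 weeks, and rose to 2 in fibrotic-like assembloids against MM HepOrgs. DESeq2 called 3 members in MM against HM-Wnt at 1 week and 1 in fibrotic-like assembloids against MM HepOrgs (Stat5b, −1.60). On log2(TPM + 1), 1 member was called in fibrotic-like against homeostatic assembloids at 1 week (Socs2, 2.49). Without the 2 assembloid libraries that stood apart, 6 were called in fibrotic-like assembloids against MM HepOrgs. The causes were not tested.

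Leaving out 1 library at a time gave 6 to 8 members called in HM-Wnt HepOrgs against freshly isolated hepatocytes at 1 week and 7 to 8 at 2 weeks, 6 to 7 in MM at 1 week and 5 to 6 at 2 weeks, 0 to 1 in MM against HM-Wnt at 1 week and 0 to 4 at 2 weeks, and 0 in every other comparison.

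The replicate block raised the members called in MM against HM-Wnt HepOrgs from 0 to 3 at 1 week and moved no other count of members by over 1.5 times. Over all genes, MM against HM-Wnt called 387 genes at 1 week and 1488 at 2 weeks, 1232 and 2544 with the block, 1420 and 2494 by DESeq2, and 0 and 7 with all 27 libraries in 1 fit. Against freshly isolated hepatocytes 6663, 6939, 5739 and 5323 genes were called, and 2893, 3247, 2005 and 1890 in that fit. On log2(TPM + 1) the share of calls that were higher was 76.5%, 84.5%, 83.1% and 80.9% there, against 50.1%, 50.4%, 50.3% and 49.7%, and the median of all genes lay 0.40, 0.68, 0.47 and 0.40 above 0. In MM against HM-Wnt it was 76.9% against 59.2% at 1 week and 31.0% against 59.7% at 2 weeks. Depth limited the ratios of Car3, through its few counts outside freshly isolated hepatocytes.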
